A study of Mus musculus with 10 samples.

Results

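The 42 genes described here encode proteins of the lysosome: its membrane proteins, the hydrolases that break down sugars, sulfated glycans, lipids and proteins, and the pump that acidifies it. They were taken by name from a list of lysosomal genes, and all 42 were found among the 49315 genes of the deposited count tables. Their RNA was measured in microglia sorted by flow cytometry from the brains of wild-type C57BL/6 mice. CD11c+ cells were compared with CD11c- cells at postnatal day 5 (P5, 3 libraries of each) and at 9 months of age (2 libraries of each), and no other genotype or treatment was used. CD11c is the integrin alpha chain encoded by Itgax, and the sort separates cells by that surface protein alone, so other CD11c+ or CD11c- cells that pass the gate enter the same libraries. Per the labels, the 9-month libraries were amplified with a SMART-Seq v4 low-input kit and the P5 libraries are described only by standard Illumina protocols, so age and kit cannot be told apart. Levels of the 2 ages are therefore set side by side and were not tested against each other. The labels do not say whether replicates came from separate animals or pools, and p-values measure only the spread between these libraries.

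Lysosomes receive cargo from endocytosis, phagocytosis and autophagy and degrade it with acid hydrolases, which work at the low pH made by a proton-pumping ATPase with a membrane sector (V0) and a cytosolic sector (V1). Microglia, the resident macrophages of the brain, use this compartment to digest apoptotic cells, synapses and myelin. Inherited loss of single lysosomal enzymes causes storage disorders, many of which affect the brain. The transcription factor TFEB is known to bind a short palindromic element near the start of many lysosomal genes. The genes fall into 8 lysosomal membrane proteins, 10 glycosidases, 5 sulfatases, 6 lipid-handling enzymes and proteins, 4 proteases and phosphatases, 7 proton pump subunits, and 2 regulators, progranulin (Grn) and Tfeb itself.

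Because that element is known from many lysosomal genes, promoters of 6 genes that carry its core and differ in their measurements are printed here. They span 250 bases before to 50 bases after the start annotated by RefSeq in the mouse build GRCm38.p6. Each runs 5′ to 3′ on the strand of its gene, and capitals mark CACGTG, the core of the element, which reads the same on both strands. Lamp1 (chr8:13158911-13159210, plus strand) holds 4 copies, with their first bases at -61, -45, -28 and -15 from the start. Cln3 (chr7:126583187-126583486, minus strand) holds 2 copies at -149 and -121, and Gla (chrX:134600956-134601255, minus strand) holds 2 at -227 and -194. Sgsh (chr11:119355461-119355760, minus strand) has 1 copy at -29, Gaa (chr11:119267713-119268012, plus strand) 1 at -140, and Arsa (chr15:89477375-89477674, minus strand) 1 at -16. None of Lamp1, Cln3 and Sgsh passed the test at 9 months, while Gla fell and Gaa and Arsa rose.
Lamp1: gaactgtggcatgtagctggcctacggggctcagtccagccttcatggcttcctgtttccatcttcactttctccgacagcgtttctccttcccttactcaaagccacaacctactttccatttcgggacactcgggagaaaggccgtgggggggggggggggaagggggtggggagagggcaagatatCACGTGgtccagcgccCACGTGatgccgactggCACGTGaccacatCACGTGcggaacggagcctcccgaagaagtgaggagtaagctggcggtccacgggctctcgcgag
Cln3: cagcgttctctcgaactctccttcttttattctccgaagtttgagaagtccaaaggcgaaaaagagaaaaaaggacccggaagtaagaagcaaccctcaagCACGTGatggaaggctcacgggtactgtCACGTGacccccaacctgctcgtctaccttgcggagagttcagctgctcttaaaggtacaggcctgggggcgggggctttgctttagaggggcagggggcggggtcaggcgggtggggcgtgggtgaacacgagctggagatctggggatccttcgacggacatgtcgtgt
Gla: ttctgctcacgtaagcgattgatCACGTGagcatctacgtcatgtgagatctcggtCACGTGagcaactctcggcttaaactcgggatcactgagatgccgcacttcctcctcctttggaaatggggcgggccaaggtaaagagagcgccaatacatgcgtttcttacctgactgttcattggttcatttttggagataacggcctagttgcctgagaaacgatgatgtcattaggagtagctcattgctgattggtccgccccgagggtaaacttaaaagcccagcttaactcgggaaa
Sgsh: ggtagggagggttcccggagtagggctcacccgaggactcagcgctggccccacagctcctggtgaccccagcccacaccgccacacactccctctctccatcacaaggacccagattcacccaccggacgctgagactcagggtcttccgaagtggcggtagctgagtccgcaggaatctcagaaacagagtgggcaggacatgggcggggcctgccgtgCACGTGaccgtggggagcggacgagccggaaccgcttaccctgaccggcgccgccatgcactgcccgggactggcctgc
Gaa: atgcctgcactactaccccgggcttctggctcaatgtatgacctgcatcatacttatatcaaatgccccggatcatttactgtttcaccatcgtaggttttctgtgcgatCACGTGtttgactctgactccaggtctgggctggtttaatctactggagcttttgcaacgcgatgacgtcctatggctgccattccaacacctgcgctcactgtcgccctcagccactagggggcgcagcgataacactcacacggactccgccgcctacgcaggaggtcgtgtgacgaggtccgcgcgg
Arsa: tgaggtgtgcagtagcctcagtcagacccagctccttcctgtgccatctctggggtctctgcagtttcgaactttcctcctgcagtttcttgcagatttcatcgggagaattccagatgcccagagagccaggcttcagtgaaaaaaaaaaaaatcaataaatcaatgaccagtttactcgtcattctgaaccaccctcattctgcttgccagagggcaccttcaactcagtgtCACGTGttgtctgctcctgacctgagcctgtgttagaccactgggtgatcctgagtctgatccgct

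Of the 42 genes, 37 had a promoter in the RefSeq table. CACGTG was present in 12 of these 37 genes (32.4%), against 2187 of all 27025 genes in the table (8.09%). The other 6 carriers were Atp6v0d1, Atp6v1a, Glb1, Lgmn, Mcoln1 and Naglu. The longer palindrome TCACGTGA, which contains CACGTG, occurred in 5 of the 37 genes, against 1.12% of all genes. That palindrome with a G before and a C after it occurred in Cln3 alone, against 0.37% of all genes. By role, CACGTG was found in 4 of 10 glycosidases, 3 of 7 membrane proteins, 2 of 4 sulfatases, 2 of 5 pump subunits, 1 of 4 proteases and phosphatases, and none of the 5 lipid-handling genes or the 2 regulators with a promoter in the table. A match describes these letters in this window and is not evidence of binding.

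The libraries held 11892082 to 25483573 counts, apart from P5 CD11c+ replicate 2 with 2619610. That library stood apart from the other P5 libraries, with correlations of log expression of 0.627 to 0.697 against 0.947 to 0.993 among the others, and with 23033 genes at a CPM (counts scaled to library size) of 1 or more against 12762 to 14735 in every other library. The lysosomal genes made up 1.09% of its counts, against 2.60% and 2.32% in the other P5 CD11c+ libraries, and 37 of the 42 had their lowest P5 CD11c+ value there. P5 results are therefore given with and without it. Itgax, the sorted gene, had 250.2, 49.2 and 144.8 CPM in P5 CD11c+ libraries, against 33.1, 61.9 and 29.3 CPM in P5 CD11c- libraries, and 28.0 and 20.7 CPM in 9-month CD11c+ libraries, against 5.80 and 3.21 CPM in 9-month CD11c- libraries. Thus replicate 2 fell within the CD11c- range for the gene used to sort it. All 20 homeostatic microglia genes of the marker list, P2ry12 and Tmem119 among them, were detected in every library.

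**Figure D1:**
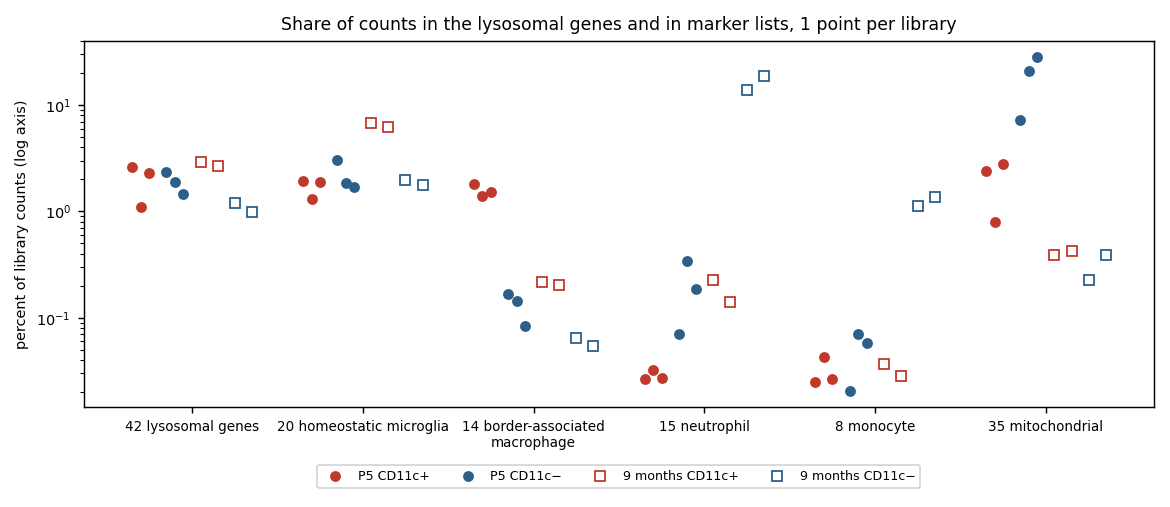
Share of library counts (percent, log axis) in the 42 lysosomal genes and in 5 marker lists, with 1 point per library, red for CD11c+ and blue for CD11c-, filled circles for P5 and open squares for 9 months. At 9 months the lysosomal genes stood at 2.94% and 2.68% in CD11c+ libraries, against 1.19% and 0.988% in CD11c- libraries, while neutrophil markers were at 0.227% and 0.141% in CD11c+ libraries, against 13.8% and 18.8% in CD11c- libraries.

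Levels were compared between genes as TPM, which divides counts by gene length and scales each library to the same total. Lgmn, the asparaginyl endopeptidase legumain, was the most abundant of the 42 in all 10 libraries, at 3185 ± 1807 TPM in P5 CD11c+ cells, 3635 ± 1853 TPM in P5 CD11c- cells (SD, n = 3 each), 4843 ± 88.9 TPM in 9-month CD11c+ cells and 1046 ± 224 TPM in 9-month CD11c- cells (SD, n = 2 each). Psap, the precursor of the saposins that activate sphingolipid hydrolases, followed, ranking 2 by group mean in 3 groups and 3 in 9-month CD11c- cells, with 2647 ± 1881 TPM in P5 CD11c+ cells, 2343 ± 797 TPM in P5 CD11c- cells, 3451 ± 1188 TPM in 9-month CD11c+ cells and 855 ± 279 TPM in 9-month CD11c- cells. These 2 genes did not separate beyond their spread within P5. Laptm5, Grn, Hexa and Cd68 filled most of the next places in each group. At the low end, Atp6v0d2 and Acp5 held ranks of 40 to 42 in every group.

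Lamp1, a heavily glycosylated protein of the lysosomal membrane, had the widest change in rank. It was the fourth gene at P5, with 1475 ± 1158 TPM in CD11c+ cells and 1001 ± 423 TPM in CD11c- cells. At 9 months it ranked 25 in CD11c+ cells, with 85.2 ± 4.61 TPM, and 17 in CD11c- cells, with 54.2 ± 23.3 TPM. Its close relative Lamp2 showed no such drop in rank, with rank 18 in P5 CD11c+ cells, 16 in P5 CD11c- cells, 14 in 9-month CD11c+ cells and 13 in 9-month CD11c- cells. Atp6v0d1, a V0 subunit of the pump, had 203 ± 118 TPM in P5 CD11c+ cells and 135 ± 29.5 TPM in P5 CD11c- cells. At 9 months it had 47 ± 7.20 TPM in CD11c+ cells, rank 31, and 47.8 ± 2.78 TPM in CD11c- cells, rank 19. In the other direction, Ppt1, a thioesterase that removes fatty acids from proteins, had 143 ± 68.2 TPM in P5 CD11c+ cells, 79 ± 34.5 TPM in P5 CD11c- cells, 463 ± 45.4 TPM in 9-month CD11c+ cells and 140.3 ± 24.2 TPM in 9-month CD11c- cells. The kits differ between the ages, and the part of the kit in these levels was not tested.

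**Figure D2:**
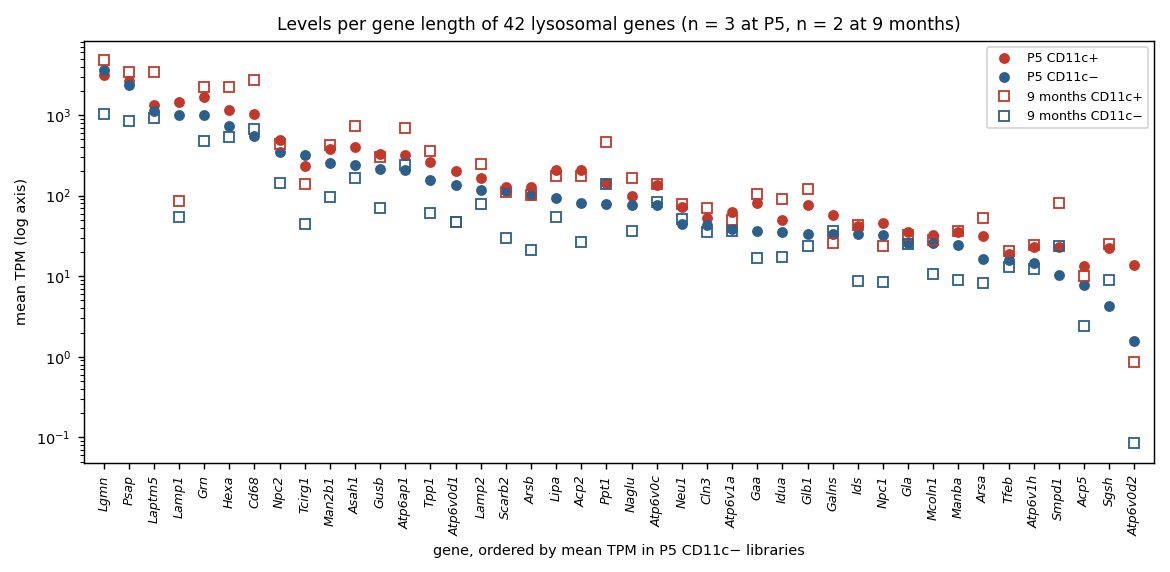
Mean TPM (log axis) of each of the 42 genes in the 4 groups, ordered by the mean in P5 CD11c- libraries, with filled circles for P5, open squares for 9 months, red for CD11c+ and blue for CD11c-. Lgmn is highest in every group, Atp6v0d2 and Acp5 are among the lowest, and the 9-month squares of Lamp1 sit far below its P5 circles.

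At P5, the question was how CD11c+ microglia, a subset of the developing brain, differ from their CD11c- neighbours. With all 6 libraries, 1 of the 42 genes rose and none fell in CD11c+ cells (edgeR quasi-likelihood test, Benjamini-Hochberg adjusted over 15410 genes), against 0.299% of all genes tested that rose and 0% that fell. Before adjustment, p was under 0.05 for 3 of the 42, all higher, and for 668 higher and 409 lower genes in all. The median log2 fold change of the 42 was 0.16 and that of all genes 0.06. The groups did not overlap for 4 genes that were higher in CD11c+ cells (8.39% of all genes) and for 2 that were lower (8.68%). Without CD11c+ replicate 2, 9 of the 42 rose and none fell, against 5.06% and 4.42% of 15841 genes, and the median was 0.45 against 0.00 for all genes. In that comparison of 2 with 3 libraries, 27 of the 42 lay wholly above the CD11c- libraries (24.3% of all genes) and 2 wholly below (22.5%). In bulk RNA, fewer cells of a type and less RNA per cell cannot be told apart.

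The gene that rose was Sgsh, the sulfamidase that removes N-linked sulfate from heparan sulfate. It had 37.4, 42 and 35.7 CPM in CD11c+ libraries, against 7.48, 9.92 and 11.7 CPM in CD11c- libraries at P5. All 3 CD11c+ libraries, replicate 2 included, were more than 3 times above the highest CD11c- library. The log2 fold change was 1.98 ± 0.26 (0.0479), and without replicate 2 it was 1.95 ± 0.21 (0.00355). Here and below, ± on a fold change is a standard error, and the edgeR adjusted p is in parentheses. That error was derived from the fold change and the F statistic of the test, and is less reliable where the fold change is near 0. Leaving out any 1 of the other 5 libraries left the fold change of Sgsh between 1.79 and 2.12. The call ended each time, with adjusted p from 0.239 to 0.490, but no gene at all passed in any of those fits. It was also lost with no filter on low counts (0.186) and with libraries scaled to homeostatic microglia genes (0.0605). With the replicate number as a block it was lost too (0.285), and no gene at all passed at P5 there either. Exons of Card14 on the opposite strand overlap 21.6% of Sgsh's length, and whether reads were counted by strand is not given in the sources used here. Among the other sulfatases, Galns, which acts on keratan sulfate, had 69.3, 54.1 and 48.8 CPM in CD11c+ libraries, against 44.6, 49.4 and 35.5 CPM in CD11c- libraries, a fold change of 0.41 ± 0.24 (0.800). Its groups overlapped. Arsa, which desulfates the myelin lipid sulfatide, stood at 0.49 ± 0.38 with all libraries and at 0.83 ± 0.19 (0.0375) without replicate 2, where it rose. Arsb (-0.18) and Ids (-0.08), which degrade dermatan and heparan sulfate, did not pass in either comparison.

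Of the 8 membrane proteins, none passed with all P5 libraries and 1, Cd68, rose without replicate 2. Cd68, a glycoprotein of macrophage endosomes and lysosomes, had 612, 50.8 and 602 CPM in CD11c+ libraries, against 326, 412 and 284 CPM in CD11c- libraries. The 2 deep CD11c+ libraries were above all CD11c- libraries and replicate 2 was far below them, so the fold change was 0.31 ± 0.80 (0.939) with it and 0.86 ± 0.20 (0.0403) without it. Lamp1 had 1892, 288 and 1698 CPM in CD11c+ libraries, against 1354, 1425 and 1110.2 CPM in CD11c- libraries, the same pattern, with 0.00 ± 0.66 (0.999) with and 0.50 ± 0.20 (0.165) without that library. Scarb2, the receptor that carries glucocerebrosidase to the lysosome, had 373, 136 and 317 CPM in CD11c+ libraries, against 391, 383 and 249.9 CPM in CD11c- libraries and a fold change of -0.31 ± 0.43 (0.871). Laptm5, a lysosomal protein of haematopoietic cells, had 2237, 1405 and 1849 CPM in CD11c+ libraries, against 2040.5, 2145 and 2005 CPM in CD11c- libraries and -0.17 ± 0.33 (0.914). Both overlapped between the groups. Lamp2 (0.07), the cholesterol exporter Npc1 (0.04), Cln3 (-0.23), the gene of juvenile neuronal ceroid lipofuscinosis, and the cation channel Mcoln1 (-0.16) did not pass either.

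None of the 10 glycosidases passed with all P5 libraries, and Glb1 and Gaa rose without replicate 2. Glb1, the beta-galactosidase that removes galactose from gangliosides, had 106, 40.1 and 94.7 CPM in CD11c+ libraries, against 49, 58.6 and 41.4 CPM in CD11c- libraries, a fold change of 0.70 ± 0.38 (0.800), and 1.04 ± 0.18 (0.0171) without replicate 2. Gaa, which digests glycogen, had 182, 40.1 and 165 CPM in CD11c+ libraries, against 91.8, 99.4 and 62.4 CPM in CD11c- libraries, a fold change of 0.61 ± 0.55 (0.809), and 1.06 ± 0.21 (0.0283) without replicate 2. In both, replicates 1 and 3 were above every CD11c- library. The other 8 glycosidases had fold changes from -0.10 (Gla, alpha-galactosidase A) to 0.24 (Neu1, a sialidase) with all libraries and from 0.13 (Gla) to 0.54 (Man2b1, alpha-mannosidase) without replicate 2, and none passed.

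Of the 6 lipid-handling genes, Smpd1, Ppt1 and Lipa rose without replicate 2 and none passed with it. Smpd1, acid sphingomyelinase, had 29.5, 28.7 and 29.4 CPM in CD11c+ libraries, against 16.3, 19.1 and 15.2 CPM in CD11c- libraries. Its 3 CD11c+ libraries were close together and all above the CD11c- libraries, and the fold change was 0.79 ± 0.21 (0.307) with all libraries and 0.83 ± 0.16 (0.0276) without replicate 2. Ppt1 had 207, 160.1 and 215 CPM in CD11c+ libraries, against 149.5, 146 and 124 CPM in CD11c- libraries, again without overlap, and 0.47 ± 0.24 (0.794) with all libraries and 0.62 ± 0.15 (0.0457) without replicate 2. Lipa, the acid lipase of cholesteryl esters, stood at 0.62 ± 0.44 (0.801) and at 0.99 ± 0.22 (0.0346) without replicate 2. Psap had 3326, 933 and 3099 CPM in CD11c+ libraries, against 3053, 3475 and 2977 CPM in CD11c- libraries. Replicates 1 and 3 lay within the CD11c- range, and the fold change was -0.37 ± 0.52 (0.873), or 0.05 ± 0.21 (0.908) without replicate 2. The ceramidase Asah1 (0.22, and 0.66 without replicate 2) and the cholesterol carrier Npc2 (0.02 and 0.30) did not pass.

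None of the 4 proteases and phosphatases passed at P5. Lgmn had 3035, 1741 and 3159 CPM in CD11c+ libraries, against 4618, 3870.0 and 3529 CPM in CD11c- libraries. With TMM scaling every CD11c+ library was below every CD11c- library. The fold change was -0.60 ± 0.39 (0.800), and it was -0.34 ± 0.23 (0.385) without replicate 2. With library totals the groups overlapped, at 3271, 1805 and 3315 CPM in CD11c+ libraries, against 4995, 3451 and 2896 CPM in CD11c- libraries. Acp2, a lysosomal acid phosphatase, had 236, 1231 and 209.8 CPM in CD11c+ libraries, against 228, 201 and 182 CPM in CD11c- libraries. Replicate 2 was more than 5 times above every other P5 library here, and the fold change of 1.45 ± 0.72 (0.774) became 0.16 ± 0.16 (0.579) without it. Acp5, the tartrate-resistant acid phosphatase best known from osteoclasts, had 12.6, 0.368 and 12.8 CPM in CD11c+ libraries, against 3.74, 9.10 and 13.8 CPM in CD11c- libraries. The value of replicate 2 rests on 1 count, the fold change was -0.02 ± 1.02 (0.998), and it was 0.56 ± 0.46 (0.485) without that library. Tpp1, a peptidase that removes tripeptides from protein ends, had 635, 177 and 570.3 CPM in CD11c+ libraries, against 471, 393 and 265 CPM in CD11c- libraries, with a fold change of 0.29 ± 0.51 (0.906), and 0.71 ± 0.25 (0.121) without replicate 2.

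Of the 7 pump subunits, Atp6v0d2 rose without replicate 2 and none passed with it. Atp6v0d2, the form of the V0 d subunit known from osteoclasts and macrophages, had 20.6, 8.84 and 10.4 CPM in CD11c+ libraries, against 1.25, 3.39 and 2.36 CPM in CD11c- libraries. The CD11c+ libraries were all above the CD11c- libraries, with a fold change of 2.52 ± 0.60 (0.230), or 2.78 ± 0.45 (0.0152) without replicate 2. Its broadly expressed counterpart Atp6v0d1 had 157, 83.2 and 148 CPM in CD11c+ libraries, against 101, 144 and 122 CPM in CD11c- libraries. The groups overlapped, at 0.08 ± 0.32 (0.964). Tcirg1, a V0 a subunit known from osteoclasts, had 475, 143 and 448 CPM in CD11c+ libraries, against 853, 585 and 577 CPM in CD11c- libraries. With TMM scaling it was lower in every CD11c+ library, at -0.92 ± 0.49 (0.800), and at -0.51 ± 0.23 (0.194) without replicate 2. With library totals its groups overlapped, at 512, 148 and 470 CPM in CD11c+ libraries, against 923, 521 and 474 CPM in CD11c- libraries. The proteolipid subunit Atp6v0c (0.25), the catalytic V1 subunit Atp6v1a (0.16), the V1 regulatory subunit Atp6v1h (0.47) and the accessory protein Atp6ap1 (0.25) did not pass with or without replicate 2. Of the regulators, Grn, a secreted protein taken into lysosomes, had 2796, 775 and 2325 CPM in CD11c+ libraries, against 1924, 1756 and 1179.5 CPM in CD11c- libraries, at 0.28 ± 0.53 (0.914), or 0.69 ± 0.26 (0.143) without replicate 2. Tfeb had 44.4, 27.6 and 43.9 CPM in CD11c+ libraries, against 39.6, 45.3 and 52.7 CPM in CD11c- libraries, at -0.24 ± 0.26 (0.840). Both overlapped with all libraries.

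Beside these P5 values, the summed share of 14 border-associated macrophage markers was 1.80%, 1.40% and 1.53% of counts in CD11c+ libraries, against 0.168%, 0.144% and 0.0829% in CD11c- libraries, and none of the 14 was at 0 in all libraries of either group. Mrc1, the mannose receptor, had 4080.0, 1904 and 3889 CPM in CD11c+ libraries, against 368.9, 307.1 and 189.5 CPM in CD11c- libraries. Dendritic cell markers took 0.0233%, 0.0277% and 0.0287% in CD11c+ libraries, against 0.0024%, 0.0033% and 0.0029% in CD11c- libraries, and none of the 8 was at 0 in all libraries of either group. Mitochondrially encoded genes took 2.39%, 0.791% and 2.80% of counts in CD11c+ libraries, against 7.19%, 20.8% and 28.1% in CD11c- libraries. Homeostatic microglia markers took 1.92%, 1.31% and 1.88% in CD11c+ libraries, against 3.04%, 1.84% and 1.69% in CD11c- libraries. Per count of them, the lysosomal genes stood at 1.35, 0.833 and 1.23 in CD11c+ libraries, against 0.768, 1.02 and 0.854 in CD11c- libraries. With libraries scaled to these markers the median of all genes moved to 0.57 and none of the 42 passed, against 0.662% of all genes that rose and 0% that fell. Without replicate 2 it moved to 0.32 and 13 of the 42 rose and none fell, against 8.63% and 1.87% of all genes. With library totals the median of all genes was 0.26 with all libraries, and 1 of the 42 rose and none fell, against 0.487% and 0% of all genes. Without replicate 2 it was 0.15, and 9 of the 42 rose and none fell, against 5.32% and 4.63%. The part of the marker and mitochondrial differences in the P5 results was not tested. Leaving mitochondrial genes out of the fit gave the same count of 1 gene.

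**Figure D3:**
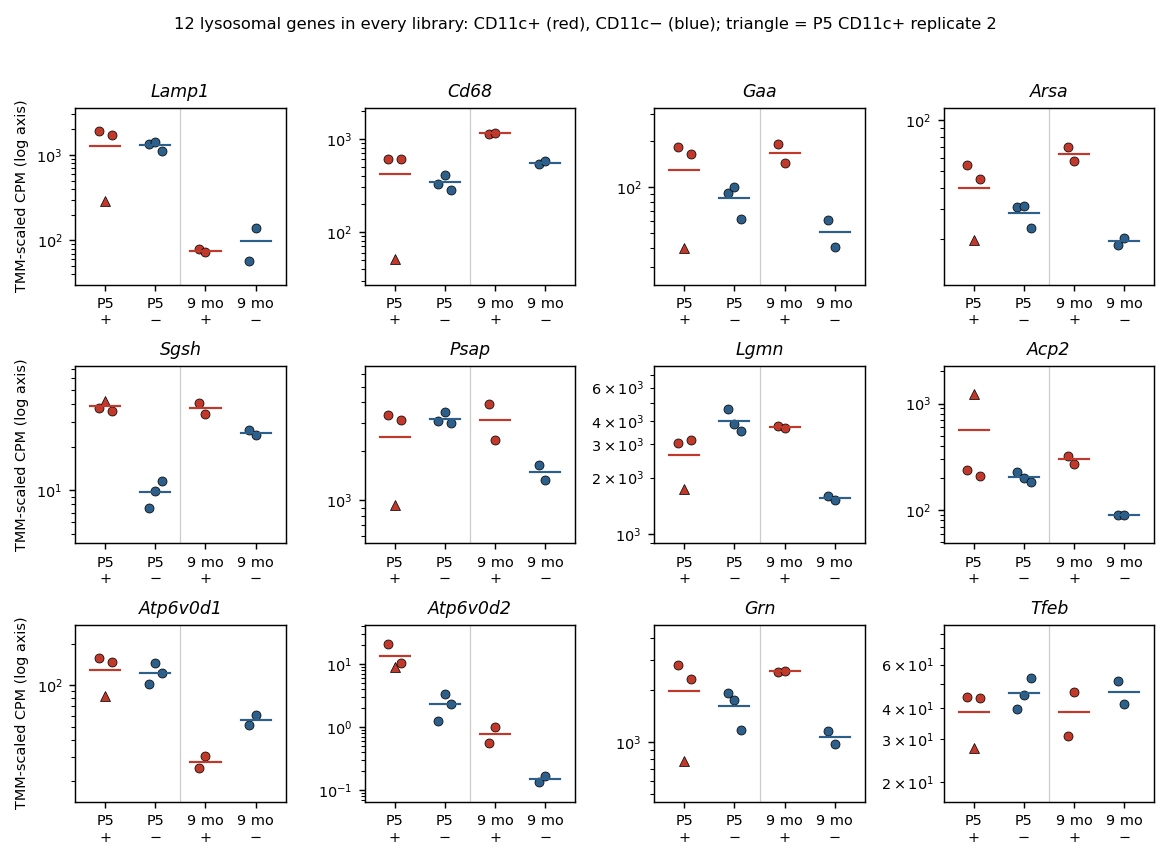
TMM-scaled CPM (log axis) of 12 lysosomal genes in each library, with CD11c+ in red left of CD11c- in blue at each age, bars at group means and a triangle for P5 CD11c+ replicate 2, scaled within each age. Sgsh and Atp6v0d2 are higher in all 3 P5 CD11c+ libraries, and Lgmn is lower in all of them, while at 9 months Cd68, Gaa, Arsa, Lgmn, Acp2 and Grn are higher and Atp6v0d1 lower in both CD11c+ libraries.

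At 9 months, the comparison asked the same of the adult brain. Most of the lysosomal genes were higher in CD11c+ cells: 27 of the 42 rose and 3 fell (edgeR quasi-likelihood test, adjusted over 15740 genes), against 14.8% of all genes that rose and 18.2% that fell. The median log2 fold change of the 42 was 0.93, and that of all genes 0.02. Both CD11c+ libraries were above both CD11c- libraries for 31 of the 42 (36.1% of all genes) and below them for 5 (33.8%). The hydrolases carried most of this: 8 of 10 glycosidases, 3 of 5 sulfatases, all 6 lipid-handling genes and 3 of 4 proteases and phosphatases rose. Of the 8 membrane proteins 4 rose, and of the 7 pump subunits 2 rose and 1 fell, with a median of 0.01. The 3 that fell were Gla, Galns and Atp6v0d1. All 30 kept their direction in a fit of all 10 libraries, which shares the larger spread of the P5 samples, but only 1 passed there, Galns, against 1.43% of all genes that rose and 4.49% that fell in that fit.

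The direction of these changes depended on what the libraries were scaled to, and markers of several other cell types differed between the groups. In CD11c+ libraries, 0.227% and 0.141% of counts lay in neutrophil markers, against 13.8% and 18.8% in the CD11c- ones. For monocyte markers, 0.0368% and 0.0280% of the CD11c+ counts stood against 1.13% and 1.37% of the CD11c- counts. Border-associated macrophage and dendritic cell markers were higher in the CD11c+ libraries. The macrophage list held 0.218% and 0.205% of the CD11c+ counts, against 0.0646% and 0.0543% of the CD11c- counts, and 13 of its 14 genes rose and 1 fell, with a median fold change of 2.87. The dendritic cell list held 0.0303% and 0.0286% of the CD11c+ counts, against 0.0045% and 0.0042% of the CD11c- counts, and 5 of its 8 genes rose and none fell, with a median of 1.51. None of the 15 neutrophil, 8 monocyte, 14 macrophage or 8 dendritic cell markers was at 0 in all libraries of a 9-month group. The 20 homeostatic microglia markers held 6.79% and 6.17% of the CD11c+ counts, against 1.99% and 1.75% of the CD11c- counts. Per count of these microglia genes, the lysosomal genes stood at 0.434 and 0.434 in CD11c+ libraries and at 0.600 and 0.564 in CD11c- libraries. With libraries scaled to that list, the median of all genes moved to -1.39, none of the 42 rose and 19 fell, against 0.457% of all genes that rose and 63% that fell, and the median of the 42 was -0.48. With library totals alone, 30 rose and 1 fell, against 25.4% and 13.1% of all genes, and the median of all genes was 0.40. The lysosomal genes thus took a larger share of RNA in CD11c+ libraries but not a larger one per homeostatic microglia RNA. The part of the other cells' RNA, macrophage and dendritic cell RNA included, in these results was not tested.

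**Figure D4:**
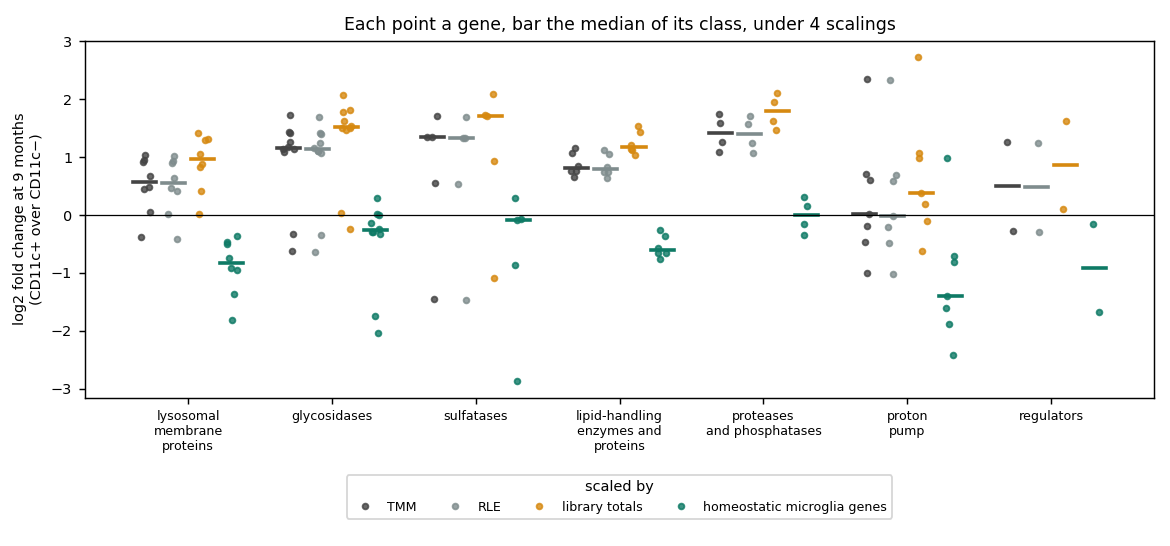
Log2 fold change at 9 months (CD11c+ over CD11c-) of each gene by role, with a bar at the median of each class, under TMM, RLE (the size factors of DESeq2), library totals and scaling to homeostatic microglia genes. Under the last, the class medians lie between -1.40 (proton pump) and 0.00 (proteases and phosphatases), whereas with TMM they lie between 0.01 and 1.42.

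Among the glycosidases, Idua, which removes iduronic acid from heparan and dermatan sulfate, had 129.7 and 123 CPM in CD11c+ libraries, against 47 and 46.6 CPM in CD11c- libraries at 9 months. Both CD11c+ libraries were more than 2 times above both CD11c- libraries, a fold change of 1.43 ± 0.15 (0.000769). Glb1 had 125 and 117 CPM in CD11c+ libraries, against 49.2 and 41.7 CPM in CD11c- libraries, with the same separation and a fold change of 1.41 ± 0.17 (0.00122). Gaa had the largest change of this class, at 1.72 ± 0.25 (0.00264). Hexa, the alpha subunit of beta-hexosaminidase, rose by 1.13 ± 0.15, Gusb, beta-glucuronidase, by 1.13 ± 0.15, Man2b1 by 1.18 ± 0.18, the beta-mannosidase Manba by 1.10 ± 0.18, and Naglu, an enzyme of heparan sulfate breakdown, by 1.26 ± 0.29, with adjusted p from 0.00173 to 0.0172. Gla fell, at -0.61 ± 0.18 (0.0389), with 37.3 and 32.3 CPM in CD11c+ libraries, against 51.4 and 55.1 CPM in CD11c- libraries. That call was lost, with fold changes from -0.67 to -0.48, when any 1 of the 4 libraries was left out, with library totals, at -0.24 (0.379), and with no filter on low counts, at -0.55 (0.0647). Neu1, at -0.33 ± 0.16 (0.171), did not pass. When scaled to homeostatic genes, Gaa stood at 0.29, Idua at 0.02 and Glb1 at 0.00, and none of the 3 passed.

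The sulfatases went in both directions. Arsa had 69.5 and 57.3 CPM in CD11c+ libraries, against 18.4 and 20.3 CPM in CD11c- libraries, a clear separation at 1.71 ± 0.20 (0.00103). Ids, iduronate sulfatase, had 78.6 and 66.8 CPM in CD11c+ libraries, against 26.1 and 31 CPM in CD11c- libraries, at 1.35 ± 0.19 (0.00251). Arsb rose by 1.34 ± 0.25 (0.00706), though exons on the opposite strand overlap 48.8% of its length. Galns fell, with 25.5 and 19.4 CPM in CD11c+ libraries, against 64.6 and 57.7 CPM in CD11c- libraries, a fold change of -1.45 ± 0.21 (0.00267). It was the lowest of the 42 fold changes, and it fell under every scaling, from -1.08 with library totals to -2.87 with homeostatic genes. Sgsh, the gene that rose at P5, had 40.4 and 33.9 CPM in CD11c+ libraries, against 26.2 and 24.3 CPM in CD11c- libraries. It was higher in both CD11c+ libraries but missed the threshold, at 0.56 ± 0.19 (0.0679), and passed with library totals, at 0.93 (0.0153).

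All 6 lipid-handling genes rose with TMM scaling. Asah1 had 784 and 852 CPM in CD11c+ libraries, against 339 and 398 CPM in CD11c- libraries, at 1.15 ± 0.15 (0.00179). Ppt1 had 524 and 599 CPM in CD11c+ libraries, against 330.3 and 333 CPM in CD11c- libraries, at 0.76 ± 0.14 (0.00766). In both, the libraries of a group were close together and the groups well apart. Psap had 3901 and 2359 CPM in CD11c+ libraries, against 1647 and 1329 CPM in CD11c- libraries, with a wide gap between the 2 CD11c+ libraries, both still above the CD11c- libraries, at 1.07 ± 0.25 (0.0177). Lipa rose by 0.76 ± 0.20, Npc2 by 0.66 ± 0.13 and Smpd1 by 0.85 ± 0.27 (0.0489). The call of Smpd1 was lost without CD11c- replicate 2, at 0.59 with adjusted p = 0.0747.

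The proteases and phosphatases had the highest class median, 1.42. Acp2 had 325 and 272 CPM in CD11c+ libraries, against 89.4 and 90 CPM in CD11c- libraries, at 1.74 ± 0.16 (0.000372), the largest increase that passed among the 42. Tpp1 had 638 and 573 CPM in CD11c+ libraries, against 213 and 192 CPM in CD11c- libraries, at 1.58 ± 0.15 (0.000429). Each had about 3 times the level of the CD11c- libraries. Lgmn had 3776 and 3657 CPM in CD11c+ libraries, against 1596 and 1518 CPM in CD11c- libraries, at 1.25 ± 0.13 (0.000739). It was thus higher in both CD11c+ libraries at 9 months. At P5 it was lower in all 3 with TMM scaling, but not with library totals. Acp5 had 8.29 and 5.31 CPM in CD11c+ libraries, against 2.67 and 3.73 CPM in CD11c- libraries. It was higher in both CD11c+ libraries, at 1.09 ± 0.40, and did not pass (0.0800). It passed without CD11c- replicate 2, at 1.41 (0.0427), with library totals, at 1.47 (0.0217), and with no filter on low counts, at 1.15 (0.0441).

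Of the membrane proteins, Cd68 had 1124 and 1157 CPM in CD11c+ libraries, against 533 and 575 CPM in CD11c- libraries, at 1.04 ± 0.14 (0.00173). Laptm5 had 4621 and 3939 CPM in CD11c+ libraries, against 2238 and 2279.8 CPM in CD11c- libraries, at 0.92 ± 0.14 (0.00376). In both genes the CD11c+ libraries were at about 2 times the level of the CD11c- libraries. Scarb2 rose by 0.95 ± 0.17 (0.00655) and Lamp2 by 0.67 ± 0.16 (0.0174), the second not without CD11c- replicate 1, at 0.53 with adjusted p = 0.0506. Lamp1 did not follow Lamp2. It had 78.4 and 72.1 CPM in CD11c+ libraries, against 57.6 and 139 CPM in CD11c- libraries, with both CD11c+ values inside the CD11c- range, at -0.39 ± 0.37 (0.470). Without CD11c- replicate 1 it was lower, at -0.89 with adjusted p = 0.0149. Cln3 at 0.04 ± 0.15 and Mcoln1 at 0.44 ± 0.36 overlapped between the groups, and Npc1 at 0.49 ± 0.22 (0.141) did not overlap but missed the threshold. Mcoln1 rose without CD11c+ replicate 1, at 0.98 with adjusted p = 0.00242, and Npc1 without CD11c- replicate 2, at 0.86 with adjusted p = 0.0273, with library totals, at 0.88 (0.0155), and with no filter, at 0.55 (0.0400).

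The pump subunits changed in both directions. Atp6v0d1 fell, with 24.9 and 30.7 CPM in CD11c+ libraries, against 50.9 and 60.5 CPM in CD11c- libraries, a fold change of -1.0 ± 0.20 (0.0101). Atp6ap1 rose, with 692 and 706 CPM in CD11c+ libraries, against 472 and 447 CPM in CD11c- libraries, at 0.61 ± 0.13 (0.0142). Tcirg1 rose by 0.71 ± 0.21 (0.0397), with 233 and 174 CPM in CD11c+ libraries, against 142 and 107 CPM in CD11c- libraries, but not without CD11c+ replicate 1, at 0.54 with adjusted p = 0.111, nor without CD11c- replicate 2, at 0.59 with adjusted p = 0.0771. Atp6v0c at -0.19 ± 0.14, Atp6v1a at -0.46 ± 0.23 and Atp6v1h at 0.01 ± 0.16 did not pass. Atp6v0d2 had few counts at this age, with 0.557 and 1.0 CPM in CD11c+ libraries, against 0.133 and 0.165 CPM in CD11c- libraries. These values rest on 43 counts in CD11c+ libraries and 6 in CD11c- libraries, a ratio of 6.78 with an exact 95% interval of 2.87 to 19.5 that covers counting error only, and the fitted fold change was 2.36 ± 0.99 (0.115). Under library totals Atp6v0d1 stood at -0.62 and missed the threshold.

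Of the regulators, Grn had 2558 and 2575 CPM in CD11c+ libraries, against 1162 and 976 CPM in CD11c- libraries, more than 2 times the CD11c- level, at 1.26 ± 0.15 (0.00113). Tfeb had 30.9 and 46.3 CPM in CD11c+ libraries, against 51.6 and 41.4 CPM in CD11c- libraries, with overlapping groups, at -0.27 ± 0.25 (0.447). Set against the promoters, the 12 genes with CACGTG included 5 that rose, 2 that fell and 5 that did not pass at 9 months, with a median fold change of 0.50. The 25 genes without it included 21 that rose, none that fell and 4 that did not pass, with a median of 1.04.

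**Figure D5:**
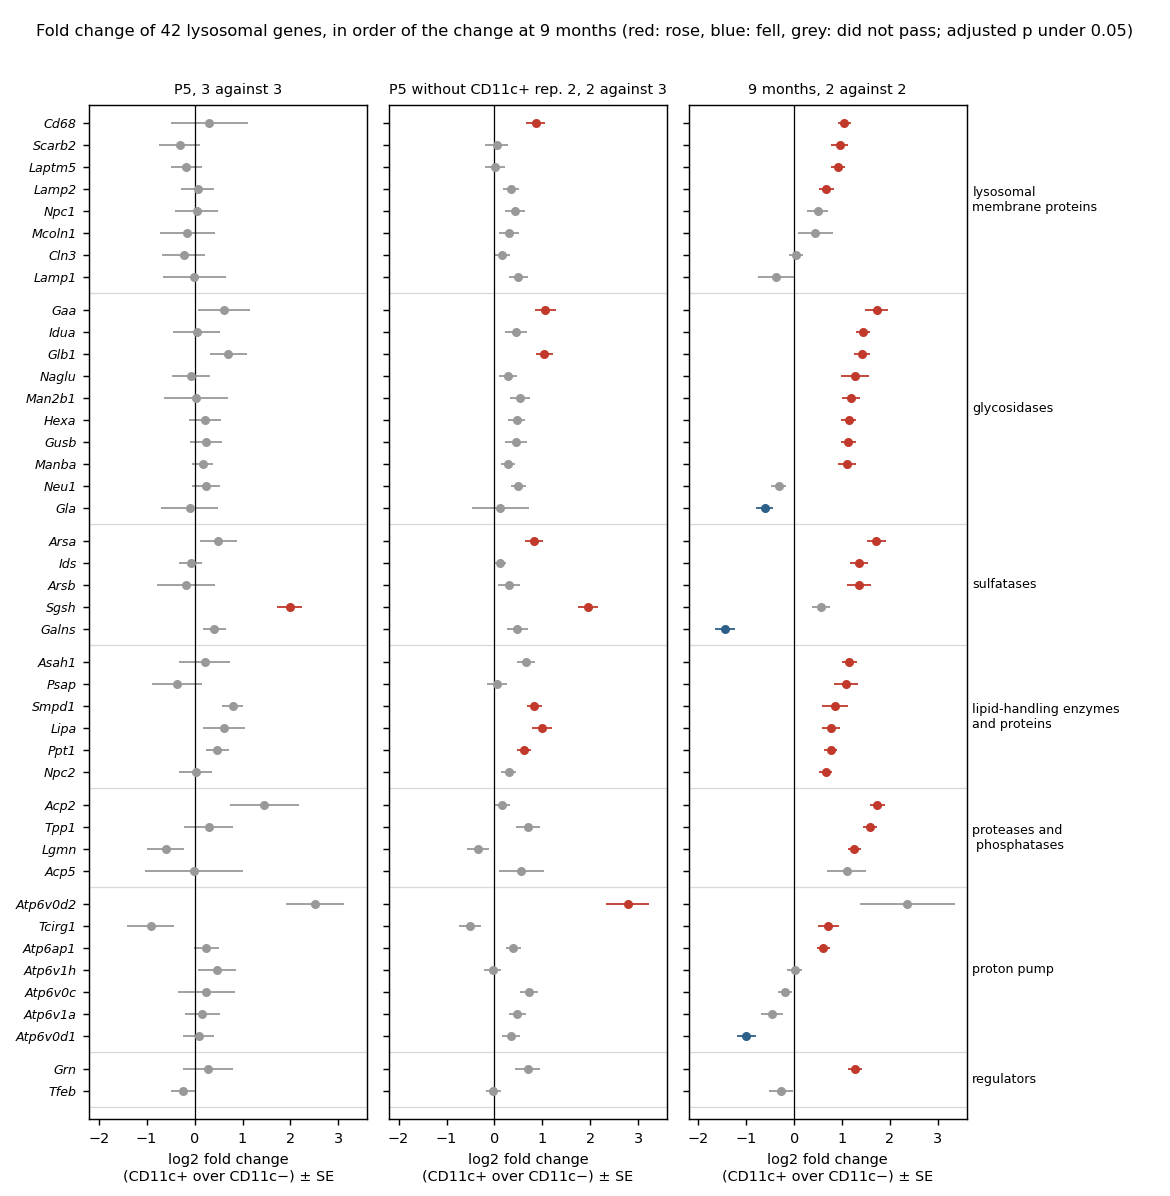
Log2 fold change (CD11c+ over CD11c-) with its standard error for each of the 42 genes, grouped by role, at P5 with all libraries, at P5 without CD11c+ replicate 2 and at 9 months. Points are red where the gene rose, blue where it fell and grey where it did not pass, and 1, 9 and 27 genes are red in the 3 panels while 0, 0 and 3 are blue.

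Of the 9 genes that rose at P5 without replicate 2, 7 also rose at 9 months, namely Cd68, Glb1, Gaa, Arsa, Lipa, Smpd1 and Ppt1, which are 7 of the 27 that rose there. The other 2, Sgsh and Atp6v0d2, did not pass at 9 months. As 27 of the 42 rose at 9 months, most of any 9 of them would be expected to do so. The share of all genes that rose in both comparisons was not computed. Whether the CD11c difference itself changed between the ages was tested as an interaction over all 10 libraries, a contrast that a kit effect shared by both subsets does not enter. None of the 42 passed in edgeR with all libraries, against 0.302% of 19555 genes with a higher and 1.56% with a lower difference at 9 months. Before adjustment, 5 had a higher and 2 a lower difference at p under 0.05, against 6.74% and 9.37% of all genes. DESeq2 called 4 higher and 2 lower, against 5.05% and 10.8% of 15265 genes. The median change of the 42 was 0.81 and that of all genes -0.06. Without P5 CD11c+ replicate 2, 10 of the 42 had a higher and 3 a lower difference at 9 months, against 8.76% and 10.3% of 18348 genes.

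Values are given for the 2 genes of each role with the smallest p in that interaction and for Ids, whose p was the third smallest of the 42. Galns differed by -1.66 ± 0.43 (0.0885), or -1.81 ± 0.32 (0.00387) without P5 CD11c+ replicate 2, being higher on average in P5 CD11c+ libraries and lower in both 9-month ones. Sgsh differed by -1.22 ± 0.36 (0.135), or -1.28 ± 0.30 (0.0142) without it. Ids differed by 1.59 ± 0.48 (0.138), or 1.33 ± 0.25 (0.00513) without it, with 86.2, 57.8 and 90.9 CPM in CD11c+ libraries, against 81.9, 82.7 and 84.4 CPM in CD11c- libraries at P5, where the groups overlapped, and the 9-month values given above. Lgmn differed by 2.02 ± 0.62 (0.143), or 1.71 ± 0.31 (0.00456), and Tcirg1 by 1.78 ± 0.78 (0.299), or 1.35 ± 0.34 (0.0205). With TMM scaling both had CD11c+ libraries below CD11c- libraries at P5 (8.68% of all genes) and above them at 9 months (36.1%). The share of all genes with both patterns was not computed. With library totals the P5 groups overlapped for both genes. Tpp1 differed by 1.43 ± 0.80 and Psap by 1.57 ± 0.82, and only Psap passed without replicate 2, at 1.14 ± 0.35 (0.0470).

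Manba had 105, 82.1 and 92.8 CPM in CD11c+ libraries, against 89.4, 86.2 and 73.6 CPM in CD11c- libraries at P5, and 89.3 and 80.0 CPM in CD11c+ libraries, against 43.5 and 35.7 CPM in CD11c- libraries at 9 months. The groups overlapped at P5 and were well apart at 9 months, and the difference changed by 1.13 ± 0.41 (0.217), or 0.94 ± 0.24 (0.0231) without replicate 2. Naglu had 121, 43.8 and 104 CPM in CD11c+ libraries, against 113, 92.5 and 78.4 CPM in CD11c- libraries at P5, and 114 and 176 CPM in CD11c+ libraries, against 74.3 and 46.4 CPM in CD11c- libraries at 9 months, the same pattern, with a change of 1.51 ± 0.71 (0.332), or 1.12 ± 0.38 (0.0629). Npc2 had 704, 355 and 656 CPM in CD11c+ libraries, against 561, 578 and 553 CPM in CD11c- libraries at P5, and 481 and 456 CPM in CD11c+ libraries, against 297 and 298 CPM in CD11c- libraries at 9 months, with a change of 0.79 ± 0.57 (0.542).

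Scarb2, whose P5 values are given above, had 239 and 220.5 CPM in CD11c+ libraries, against 133 and 105 CPM in CD11c- libraries at 9 months, and its difference changed by 1.41 ± 0.69 (0.354), or 1.03 ± 0.33 (0.0517). Laptm5 changed by 1.27 ± 0.55 (0.297), or 1.02 ± 0.30 (0.0385) without replicate 2. Atp6v0d1 changed by -0.93 ± 0.56 (0.460), or -1.24 ± 0.30 (0.0163). Of the regulators, Grn changed by 1.13 ± 0.81 (0.539) and Tfeb by 0.15 ± 0.50 (0.920), and neither passed without replicate 2. The remaining genes that passed without replicate 2 were Acp2, Idua, Arsa and Arsb, all with a higher difference at 9 months, by 0.99 to 1.69. Under homeostatic scaling 0 of the 42 were higher and 16 lower with all libraries, against 0.0818% and 37% of all genes, whose median was -2.18. Without replicate 2, 0 were higher and 30 lower, against 0.632% and 55.4% of all genes, whose median was -1.59. The share of lower members with all libraries is thus near that of all genes.

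Other genes of the compartment, from the other lists, are given for context, and their counts at 9 months stand against the same 14.8% of all genes that rose and 18.2% that fell. Of 11 cathepsins, the main lysosomal proteases, 10 rose and none fell at 9 months. Ctsb had 5484 ± 249 against 1905 ± 88.2 CPM (SD, n = 2 each here and below) in CD11c+ against CD11c- libraries, a fold change of 1.53 ± 0.14 (0.000358). Of 19 other hydrolases and activators, 11 rose and none fell, with Pla2g15, a lysosomal phospholipase, at 1.76 ± 0.15 (0.000313). Of 13 other pump subunits, 3 rose and 5 fell, with Atp6v1e1 at -1.17 ± 0.14 (0.00123), Atp6v0e at -1.12 ± 0.15 (0.00217) and Atp6v0a2 at 1.16 ± 0.18 (0.00356). Of 21 other membrane proteins 9 rose and 2 fell, with the potassium channel Tmem175 at 1.48 ± 0.18 (0.00129) and the chloride exchanger Clcn7 at 1.39 ± 0.17 (0.00134). Of 12 sorting genes 3 rose and 2 fell. The mannose-phosphate receptor Igf2r fell, with 0.741 ± 0.161 against 11.8 ± 3.15 CPM in CD11c+ against CD11c- libraries and a fold change of -3.98 ± 0.41 (0.000681), while the second such receptor, M6pr, rose by 0.69 ± 0.14 (0.00902). Of 18 genes of the TFEB family and nutrient sensing 4 rose and 5 fell, with Lamtor4 at -1.54 ± 0.17 (0.000941) and Flcn at 1.11 ± 0.17 (0.00302). With homeostatic scaling the median of all genes moves as given above, and these increases are relative to TMM scaling.

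At P5 with all libraries, none of these 6 lists had a gene that passed. The smallest adjusted p was that of Hgsnat, the acetyltransferase of heparan sulfate breakdown, at 2.78 ± 0.41 (0.0724). Without CD11c+ replicate 2, Hgsnat rose by 3.11 ± 0.18 (0.000259), the cathepsin Ctsc by 2.0 ± 0.17 (0.00140), Gpnmb, a membrane glycoprotein of phagocytes, by 2.92 ± 0.42 (0.0104), and Tfec, a relative of Tfeb, by 1.13 ± 0.17 (0.0116). In that comparison 5 of 19 other hydrolases, 1 of 11 cathepsins, 3 of 22 membrane proteins, 1 of 12 sorting genes and 2 of 18 TFEB and nutrient-sensing genes rose and none fell, and 1 of 13 pump subunits rose and 1 fell, against 5.06% of all genes that rose and 4.42% that fell. A single gene in a list of 11 to 13, or 2 in 18, is near those shares.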

How the data were processed

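RNA of sorted microglia was sequenced in 10 libraries. The values used are whole-number counts of reads per gene as deposited by the authors, who named Trimmomatic 0.36, STAR 2.5.2b and Subread 1.5.2, per the submitters' processing notes. The genome build, strand setting and handling of reads that map to several places are not given in the sources used here. All columns of counts were used. The 42 members, the other lists and the role classes were chosen with earlier results of these data known. Each age was tested with edgeR 4.0.16 (R 4.3.3: filterByExpr, TMM scaling, quasi-likelihood test) and p-values were adjusted by Benjamini-Hochberg over all genes tested, with a threshold of 0.05, and the change of the difference was an interaction term over all 10 libraries. The step was tested on simulated data. With all libraries, the P5 fit recovered 2% of 2-fold and 60% of 4-fold changes, and the interaction 2% and 10%. Without P5 CD11c+ replicate 2 these were 60% and 98% at P5, and 10% and 86% for the interaction. The 9-month fit recovered 44% and 96%. A gene that did not pass may thus still differ by 2-fold in any of these fits. With all libraries it may differ by 4-fold at P5 or in the interaction. The simulated spread depended on expression level only and was the same in every library, so the outlying P5 CD11c+ replicate 2 was not modelled. Changes were placed only in genes above a floor of mean CPM. CPM per library are scaled by TMM within an age, except where library totals are named. Those of Itgax and Mrc1 and the number of genes at 1 CPM also use library totals. TPM use the gene lengths in the files. The alternatives were DESeq2 1.42.0, RLE, library totals and homeostatic scaling, no filter on low counts, mitochondrial genes left out, a replicate block, a joint fit and leaving out each library; combinations without P5 CD11c+ replicate 2 were chosen after seeing the data. Full values are given for 10 chosen members and, in each comparison, for the 2 of each role with the smallest p, and up to 3 per other list. Promoters and their coordinates came from RefSeq, build GRCm38.p6, and exon overlaps from the exon coordinates in the deposited counts. In GENCODE M21, 39 of the 42 have the same start and end as there. Exons of another gene overlap 15 of the 42, 6 of them by more than 10% of their length: Hexa, Acp2, Arsa, Arsb, Sgsh and Atp6v0c.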

Additional observations from a re-analysis of the deposited data

Results flagged for a closer look

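Lgmn and Tcirg1 were flagged because, with TMM scaling, every CD11c+ library was below every CD11c- library at P5 and above at 9 months. Of all genes, 8.68% lay wholly below at P5 and 36.1% wholly above at 9 months, and the share with both was not computed. With library totals the P5 groups overlapped for both genes. The change of the difference, 9 months minus P5, was 2.02 for Lgmn and 1.78 for Tcirg1 on the log2 scale. In the test of that change with edgeR over all 10 libraries, neither passed, with adjusted p = 0.143 for Lgmn and 0.299 for Tcirg1. Without P5 CD11c+ replicate 2 both passed, at 1.71 (0.00456) and 1.35 (0.0205). With libraries scaled to homeostatic microglia genes the change was -0.05 for Lgmn and -0.25 for Tcirg1 with all libraries (adjusted p = 0.951 and 0.720), and -0.15 and -0.55 without replicate 2 (0.733 and 0.170). Neutrophil markers took 13.8% and 18.8% of counts in 9-month CD11c- libraries, and their part in this change was not tested.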

How the results depend on the processing

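Of the 42 genes, 30 were called at 9 months (27 higher, 3 lower in CD11c+ libraries). That count stayed between 29 and 31 with RLE, library totals, no filter on low counts, DESeq2, mitochondrial genes left out and the replicate block, and was 29 without any 1 library; where a group then holds 1 library, that library is assumed to vary like the other group. It was 1 in the fit of all 10 libraries and 19, all lower, with homeostatic scaling. At P5 the count of 1 became 0 with homeostatic scaling, with no filter and with the replicate block. With DESeq2 it was 3, all higher, against 364 higher and 149 lower of 18327 genes. When 1 library was left out it was 0 to 9, with 9 only without CD11c+ replicate 2. The P5 fits that left out any other library called no gene at all. Without CD11c+ replicate 2 the count was 9 with RLE or library totals and 13 with homeostatic scaling. With RLE there, 755 of 15841 genes were higher and 711 lower. For the change of the difference the count of 0 became 1 with RLE, 6 with DESeq2, 16 with homeostatic scaling and 0 to 13 when 1 library was left out, with 13 only without P5 CD11c+ replicate 2. Without P5 CD11c+ replicate 2 it was 10 with RLE (5 higher, 5 lower), 8 with library totals (5 higher, 3 lower) and 30 with homeostatic scaling. Of all 18348 genes in those fits, 1373 were higher and 2203 lower with RLE, and 1433 and 1605 with library totals. The lower members are near those shares. With all libraries, RLE called 102 higher and 521 lower of 19555 genes. Mitochondrial genes left out and library totals kept the counts of 1 at P5 and 0 for the change, and no filter and the replicate block kept 0 for the change. Whether same-numbered libraries are paired could not be settled. Their deviations correlated at 0.457, 0.0954 and -0.403 at P5 and 0.0861 at 9 months. Different-numbered libraries correlated from -0.473 to 0.459 at P5. With 2 libraries a group, the 9-month deviations mirror each other, so that value cannot decide. The replicate block gave 0 calls at P5, 31 at 9 months (27 higher, 4 lower) and 0 for the change. Signs were set against the TMM fit of all libraries, for genes called in either fit. With homeostatic scaling the sign was the opposite at 9 months for 26 genes: Atp6v1h -1.40, Cln3 -1.37, Npc1 -0.92, Sgsh -0.86, Atp6ap1 -0.81, Npc2 -0.76, Lamp2 -0.74, Tcirg1 -0.71, Lipa -0.66, Ppt1 -0.65, Smpd1 -0.57, Laptm5 -0.50, Scarb2 -0.47, Cd68 -0.37, Psap -0.36, Manba -0.32, Gusb -0.29, Hexa -0.28, Asah1 -0.26, Man2b1 -0.24, Lgmn -0.16, Grn -0.15, Naglu -0.13, Arsb -0.083, Ids -0.071 and Glb1 -0.0044. For the change of the difference it was the opposite for 9 genes: Tfeb -1.88, Smpd1 -1.87, Lipa -1.70, Ppt1 -1.63, Cln3 -1.57, Atp6ap1 -1.56, Lamp2 -1.28, Npc2 -1.24 and Manba -1.01. With homeostatic scaling and without P5 CD11c+ replicate 2, which changes both choices, it was the opposite for 21: Lipa -1.96, Tfeb -1.94, Cln3 -1.86, Smpd1 -1.72, Npc1 -1.68, Mcoln1 -1.60, Ppt1 -1.59, Cd68 -1.54, Atp6ap1 -1.53, Lamp2 -1.42, Npc2 -1.37, Glb1 -1.36, Asah1 -1.25, Grn -1.18, Man2b1 -1.11, Gaa -1.10, Gusb -1.08, Hexa -1.07, Manba -0.93, Tpp1 -0.89 and Arsa -0.87. Of these, Lipa (-0.10), Cln3 (-0.0063) and Tfeb (-0.12) were already below 0 without that replicate under TMM. Set against the TMM fit without that replicate, homeostatic scaling gave the opposite sign for 27 genes called in either, among them 10 of the 13 called with TMM, Lgmn and Tcirg1 included. No other alternative run turned the sign of a gene called in either fit. Homeostatic scaling sets the markers near 0 by construction, and the cause of the other shifts was not tested. Depth limits Acp5 and Atp6v0d2, the first with 1 count in P5 CD11c+ replicate 2 and the second with 6 counts in the 9-month CD11c- libraries.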
